A study of Mus musculus with 42 samples.

Results

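The response of diabetic mouse wounds to IL-22-Fc, a fusion of the cytokine interleukin-22 with an antibody Fc part, was compared between day 7 and 24 h after wounding. For each probe set, the IL-22-Fc effect at a time is the mean log2 intensity in IL-22-Fc wounds minus the mean in control wounds of that time, and the quantity described here is the effect at day 7 minus the effect at 24 h. It rests on 19 of the 42 arrays of the series, all of which measured the same 20672 probe sets. Every probe set entered the comparison, and single genes were then described by whether their effect grew, faded or turned between the times.

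All 19 arrays were from skin wounds of female db/db mice, which lack the leptin receptor and are obese and diabetic, aged 10 to 12 weeks per the study's methods. The groups were IL-22-Fc wounds at day 7 (n = 5), anti-ragweed control wounds at day 7 (n = 5), IL-22-Fc wounds at 24 h (n = 5) and anti-ragweed control wounds at 24 h (n = 4). Wounds of 6 mm were treated topically. Day 7 wounds had received 4 doses, on day 0 and every other day up to day 6, whereas 24 h wounds had received 1 dose, so that the time since wounding and the number of doses cannot be told apart in the difference. The labels call the control treatment anti-ragweed, whereas the study's text calls it control Fc. The labels give 50 ug of IL-22-Fc at 24 h and no dose of it at day 7. The study's methods give 50 ug and the design text 20 ug, so that the labels alone do not match the dose between the times. The strain is labelled C57BL/6. The labels do not tie the arrays to mice beyond their group, so that the p-values measure the spread between arrays. That spread was pooled over the 37 wound arrays of the series, 18 of them from VEGF or PDGF wounds.

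IL-22 acts mainly on epithelial cells. Its receptor joins a subunit that is restricted largely to epithelia, encoded by Il22ra1, to the widely shared subunit encoded by Il10rb, and signals through STAT3. In keratinocytes IL-22 is known to raise antimicrobial proteins and to hold back terminal differentiation, the programme by which cells leaving the basal layer make suprabasal keratins and the cornified envelope.

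The arrays held the tissues of skin. Over the 19 arrays the epidermal keratin gene Krt5 lay between 12.90 and 13.60 on the log2 intensity scale and Krt10 between 13.15 and 14.04, while 3 Y-linked probe sets, which mark background in female mice, lay between 2.31 and 3.78. The probe sets of Krt14, at 5.89 to 7.36, and Dcn, at 5.62 to 6.69, were low for genes of such abundant cells. Muscle genes were present (Acta1 at 12.34 to 13.08), as were adipocyte genes (Adipoq at 10.14 to 12.32) and neutrophil genes (S100a8 at 12.97 to 14.36). Correlations between arrays of a group were 0.982 to 0.996. On the first principal component, with 58.0% of the variance, day 7 arrays stood apart from 24 h arrays. On the second, with 9.83%, IL-22-Fc arrays at day 7 (12 to 26.3) stood apart from control arrays at day 7 (-30.4 to -11.2), whereas IL-22-Fc arrays at 24 h (-4.02 to 6.14) lay within the range of control arrays at 24 h (-9.50 to 12.8). Among control wounds at 24 h, the array of replicate 2 had a 5-prime Gapdh level of 13.27 against a group median of 12.39.

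Among probe sets whose IL-22-Fc effect differed between the times, an effect that grew by day 7, as defined below, was the most frequent pattern with no array left out. A probe set was called where limma's moderated test gave a Benjamini-Hochberg adjusted p under 0.05 over all probe sets and the change was at least 1.5-fold. The difference between the effects was called for 296 probe sets (1.43% of those tested), of which 130 were higher (0.629%) and 166 lower (0.803%). At day 7 the effect itself was called higher for 303 probe sets (1.47%) and lower for 172 (0.832%). The 24 h effect was called for 20 (0.0967%), 12 higher and 8 lower, and 1446 had an unadjusted p under 0.05. These 3 comparisons share their arrays, and a call at day 7 without a call at 24 h was not taken as a difference. Of the 475 probe sets called at day 7, 190 (40.0%) were also called for the difference. Among the other 285, the 95% interval of the difference lay within 1.5-fold for only 7, so that for most of them neither a change between the times nor its absence was shown. The median standard error was 0.151 for the difference, 0.103 for the day 7 effect and 0.110 for the 24 h effect.

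Of the 296, 187 had an effect that grew, which means that the day 7 effect was called in the direction of the difference (105 higher and 82 lower). This rule did not use the sign of an uncalled 24 h effect, which could be opposite, as in Il18rap and Igfbp5. Opposite signs were frequent. Over all called differences, the 24 h effect had the sign opposite to the difference in 62 of 130 higher and 141 of 166 lower ones. An effect said to grow was thus not always a 24 h effect of the same sign that became larger. In 3 of the 296 the effect faded, meaning that it was called at 24 h and the difference ran against it. In 2 the effect turned, being called in opposite directions at the times. The other 104 had a called difference without meeting either rule, 24 with a higher and 80 with a lower difference. In 2 further genes the effect was even, with calls in 1 direction at both times and a 95% interval of the difference within 1.5-fold. The plot of the day 7 effect against the 24 h effect shows these sets.

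**Figure D1:**
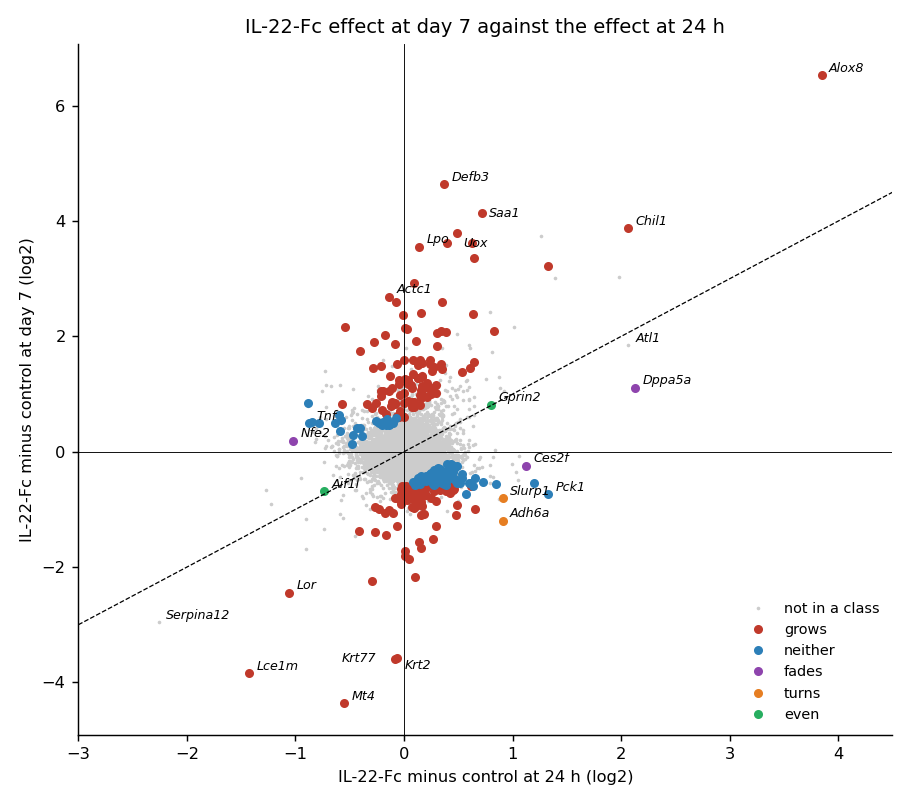
Each point is a probe set, with the IL-22-Fc minus control difference at 24 h on the x axis and at day 7 on the y axis (log2), and the dashed line marks equal effects. The 187 probe sets whose effect grew (red) spread along the y axis near 0 on the x axis, with Alox8 and Chil1 far to the right and Lce1m and Lor to the left, and the 2 that turned (orange) lie at lower right.

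The count of calls depended on single 24 h arrays. Without control replicate 2 at 24 h it was 159, without control replicate 1 at 24 h 173, without IL-22-Fc replicate 2 at 24 h 163, and without IL-22-Fc replicate 5 at 24 h 452. By direction, the higher calls ranged over 89 to 167 and the lower calls over 67 to 285 when 1 array was left out. The lower calls numbered 67 without control replicate 2 at 24 h, 74 without IL-22-Fc replicate 2 at 24 h, 83 without control replicate 1 at 24 h, 98 without control replicate 4 at day 7, 103 without IL-22-Fc replicate 1 at day 7 or replicate 3 at 24 h, and 285 without IL-22-Fc replicate 5 at 24 h. Whether lower or higher calls were more numerous also changed, with 92 higher calls without control replicate 2 at 24 h, so that the excess of lower calls was not stable. The classes moved too. The 3 fading effects ranged over 2 to 15 and the 2 even ones over 2 to 8, both with the highest count without IL-22-Fc replicate 5 at 24 h. The 2 that turned ranged over 1 to 3, and the 104 in neither class over 29 (without IL-22-Fc replicate 2 at 24 h) to 225 (without IL-22-Fc replicate 5 at 24 h). In the latter fit 209 effects grew, so that a growing effect was not the most frequent pattern there.

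Over the 19 fits that each left out 1 array, 115 of the 296 probe sets stayed called throughout (68 higher and 47 lower), among them 60 that grew higher and 33 that grew lower. The members described below stayed called for the difference in all 19 fits unless a lower number is given. For Pglyrp1, Lce1g and Junb the calls in these fits were not recorded.

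Antimicrobial and acute-phase genes were among those whose effect grew. Of 32 measured genes of this list, 9 had a higher and 0 a lower difference, and the median difference was 0.30 against 0.00 over all probe sets. Over all probe sets 1.43% were called for the difference, so that a single call or none does not set a list apart, here or below. The list was drawn up with the study's own gene choices in view, so its direction is no independent evidence. Defb3, a beta-defensin of epithelia, had log2 intensities of 11.03, 11.07, 10.75, 11.26 and 11.11 in IL-22-Fc wounds at day 7, against 5.61, 6.56, 6.74, 8.23 and 4.87 in control wounds at day 7. At 24 h the values were 6.83, 4.74, 5.86, 8.14 and 6.55 in IL-22-Fc wounds and 6.49, 6.15, 5.79 and 5.80 in control wounds. The day 7 groups did not overlap and the 24 h groups did. The day 7 effect was 4.64 (adjusted p = 3.7e-06), the 24 h effect 0.37 (adjusted p = 0.95) and the difference 4.27 ± 0.93 (SE, adjusted p = 0.011).

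Lpo, which encodes lactoperoxidase, a secreted enzyme that makes antibacterial oxidants, had the firmest difference of this group. Its levels were 7.09, 7.79, 8.28, 7.58 and 7.75 in IL-22-Fc wounds at day 7 and 4.23, 4.01, 4.55, 4.06 and 3.88 in control wounds at day 7. At 24 h they were 4.54, 4.20, 4.16, 4.16 and 4.25 in IL-22-Fc wounds and 4.12, 3.98, 4.25 and 4.14 in control wounds. Thus 3 of the 4 groups lay close to the Y-linked background, and IL-22-Fc wounds at day 7 lay far above. The difference was 3.42 ± 0.21 (SE, adjusted p = 1.6e-13).

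Saa1 and Lcn2 reached a growing effect in another way, since control levels were lower at day 7 than at 24 h. Saa1, an acute-phase serum amyloid A, averaged 8.58 in IL-22-Fc wounds and 4.44 in control wounds at day 7, and 7.64 in IL-22-Fc wounds and 6.93 in control wounds at 24 h (difference 3.42 ± 0.71 SE, adjusted p = 0.0081). Its probe set may also detect close Saa copies. Lcn2, encoding lipocalin 2, which binds bacterial siderophores, had levels of 11.30, 11.29, 11.20, 10.85 and 11.46 in IL-22-Fc wounds at day 7 and 9.75, 9.76, 9.45, 9.81 and 8.00 in control wounds at day 7. At 24 h it stood at 11.21 to 12.19 in IL-22-Fc wounds and at 11.23 to 12.14 in control wounds. Levels at 24 h were thus high with and without IL-22-Fc, and at day 7 they were high only in the IL-22-Fc wounds of these groups. The difference was 1.95 ± 0.41 (SE, adjusted p = 0.0086).

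S100a9, a subunit of the neutrophil and keratinocyte protein calprotectin, had a higher mean at day 7 than at 24 h in IL-22-Fc wounds, unlike Lcn2. It averaged 14.40 in IL-22-Fc wounds and 13.08 in control wounds at day 7, and 13.52 in IL-22-Fc wounds and 13.66 in control wounds at 24 h (difference 1.45 ± 0.36 SE, adjusted p = 0.03, called in 14 of 19 fits). Defb4, a further beta-defensin, averaged 6.01 in IL-22-Fc wounds and 3.85 in control wounds at day 7, and 3.28 in IL-22-Fc wounds and 3.82 in control wounds at 24 h. Defb1, the constitutive beta-defensin, had a difference of 0.84 ± 0.19 (SE, adjusted p = 0.016) and an average of 11.07 in IL-22-Fc wounds and 10.07 in control wounds at day 7. Pglyrp1, a peptidoglycan recognition protein, was the only one of the 9 without a called effect at day 7. Saa3 had no called effect at either time and a difference of 0.45 ± 0.45 (SE, adjusted p = 0.75).

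Chil1, which encodes a chitinase-like secreted protein, was among the few genes changed at both times. Its levels were 11.91, 12.41, 12.52, 12.26 and 12.34 in IL-22-Fc wounds and 8.35, 8.49, 8.48, 9.31 and 7.43 in control wounds at day 7. At 24 h they were 11.52, 11.56, 11.50, 11.72 and 10.88 in IL-22-Fc wounds and 9.89, 9.37, 8.97 and 9.25 in control wounds. The groups were apart at both times, and the effect was 3.88 at day 7 and 2.07 at 24 h. The difference of 1.81 ± 0.48 (SE, adjusted p = 0.04) was called in 7 of 19 fits. Uox, encoding urate oxidase, had a difference of 3.32 ± 0.76 (SE, adjusted p = 0.016, called in 18 of 19 fits), with averages of 10.18 in IL-22-Fc wounds and 6.38 in control wounds at day 7. Fetub, encoding the protease inhibitor fetuin-B, had effects of 3.02 at day 7 and 1.39 at 24 h (adjusted p = 0.19), and its difference of 1.63 ± 0.50 (SE, adjusted p = 0.091) was not called.

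Alox8, a lipoxygenase of epidermal arachidonic acid metabolism, had the largest effect at both times. It stood at 11.04, 11.15, 11.16, 10.89 and 11.11 in IL-22-Fc wounds at day 7 and at 4.20, 4.24, 4.44, 6.21 and 3.63 in control wounds at day 7. After 24 h its levels were 8.40, 8.13, 8.39, 9.02 and 6.80 in IL-22-Fc wounds and 4.69, 4.31, 4.18 and 4.00 in control wounds. The effect was thus already present after 1 dose, at 3.85 (adjusted p = 3.4e-07), and reached 6.53 at day 7 (adjusted p = 1.4e-14), a difference of 2.68 ± 0.56 (SE, adjusted p = 0.0083). The cytosolic phospholipases A2, which release arachidonic acid from membranes, had no called effect at 24 h. Pla2g4d averaged 6.28 in IL-22-Fc wounds and 3.87 in control wounds at day 7, and 3.75 in IL-22-Fc wounds and 3.60 in control wounds at 24 h (difference 2.25 ± 0.28 SE, adjusted p = 4.3e-06). Pla2g4e had a difference of 1.37 ± 0.25 (SE, adjusted p = 0.0021). Gpld1, a phospholipase that cleaves glycolipid anchors, had a difference of 1.15 ± 0.21 (SE, adjusted p = 0.0016). Of 40 measured epidermal lipid enzymes, 4 had a higher and 1 a lower difference, with a median of 0.09.

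**Figure D2:**
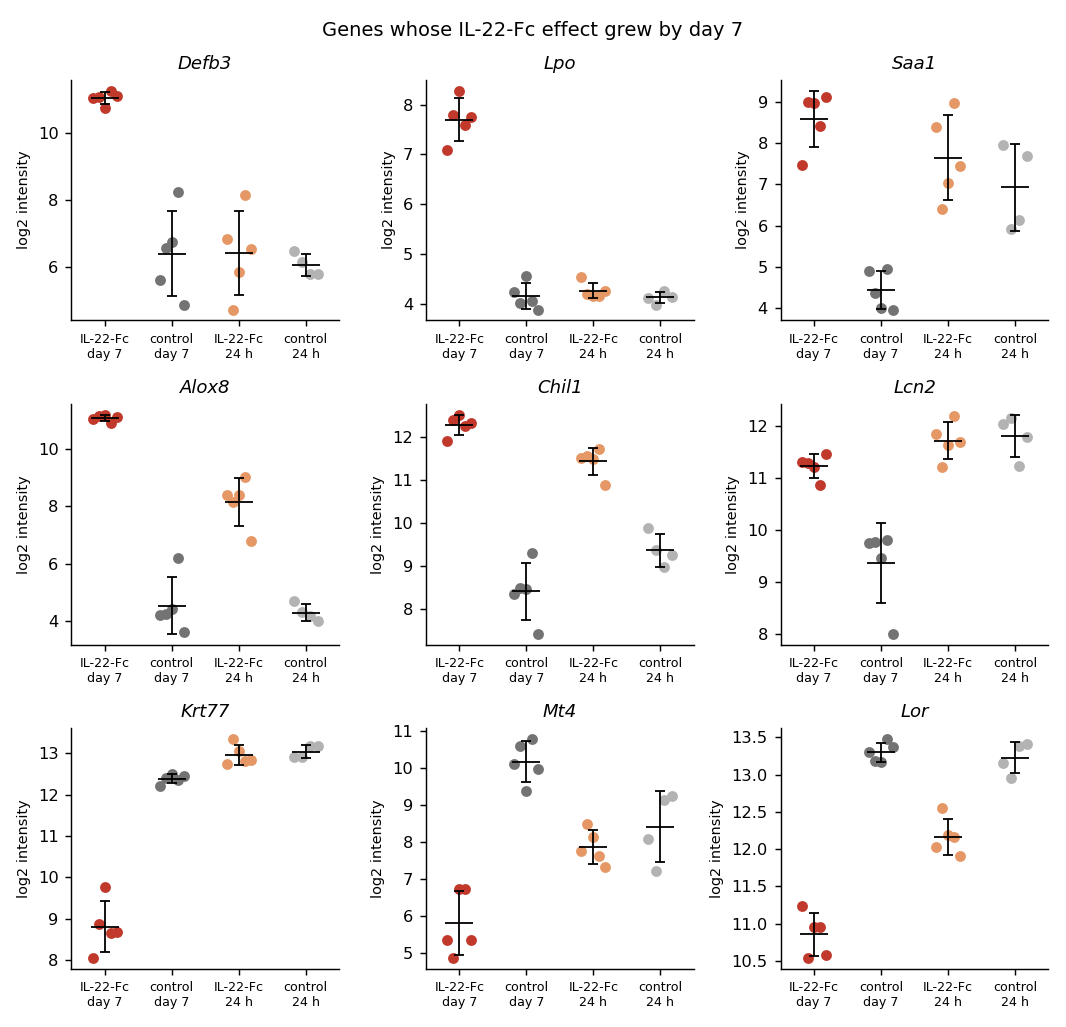
Log2 intensity of 9 genes whose effect grew, by array, in IL-22-Fc and control wounds at day 7 and 24 h, with the mean and SD as black bars. Alox8 and Chil1 are apart at both times, Lpo stands above about 7 only in IL-22-Fc wounds at day 7, and Krt77, Mt4 and Lor are lower in IL-22-Fc wounds than in control wounds at day 7.

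Some proteases and protease inhibitors of the upper epidermis had growing effects. Among inhibitors, 4 of 23 measured genes had a higher and 0 a lower difference (median 0.31). Serpinb3a, an inhibitor of the ovalbumin-like serpins, averaged 9.48 in IL-22-Fc wounds and 6.11 in control wounds at day 7, and 5.82 in IL-22-Fc wounds and 5.17 in control wounds at 24 h (difference 2.72 ± 0.38 SE, adjusted p = 2.8e-05), with a probe set that may also detect neighbouring copies. Serpina9 (difference 1.76) and Serpinb11 (0.96) were also called. Spink12, a Kazal-type inhibitor, was higher in every IL-22-Fc array than in every control array at both times, and its difference of 1.06 ± 0.67 (SE, adjusted p = 0.53) was not called.

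Among serine and membrane proteases, 4 of 12 had a higher and 0 a lower difference. Tmprss11a, a transmembrane serine protease, had levels of 6.42, 5.32, 4.76, 5.14 and 5.54 in IL-22-Fc wounds at day 7, against 2.87, 3.44, 3.42, 3.59 and 3.10 in control wounds at day 7. All 9 arrays at 24 h lay between 2.58 and 2.87, at background, with an effect of 0.01 (adjusted p = 1.0). The difference was 2.14 ± 0.27 (SE, adjusted p = 5.1e-06). Prss27 (difference 1.89 ± 0.43 SE, adjusted p = 0.016) was higher in every IL-22-Fc array than in every control array at 24 h as well, where its effect of 1.32 missed the threshold (adjusted p = 0.099). Prss22, a further epithelial serine protease, had a difference of 1.19 ± 0.28 (SE, adjusted p = 0.019, called in 18 of 19 fits). Of 9 kallikreins, proteases that shed surface corneocytes, 3 had a higher difference, Klk9 (1.43), Klk12 (1.21) and Klk11 (0.91, called in 16 of 19 fits), and all 9 differences were above 0. Klk8 had a difference of 0.30 ± 0.24 (SE, adjusted p = 0.64).

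Genes of the cornified envelope split in direction. Of 40 measured, 7 had a higher and 4 a lower difference, and the median was 0.11. The higher ones included Sprr2f and Sprr2j-ps, of the small proline-rich family, Lce3a, and Tgm3, a crosslinking transglutaminase. Sprr2f averaged 11.25 in IL-22-Fc wounds and 7.63 in control wounds at day 7, and 8.16 in IL-22-Fc wounds and 7.77 in control wounds at 24 h. Its difference of 3.23 ± 0.87 (SE, adjusted p = 0.047) was called in 5 of 19 fits and that of Lce3a (2.84, adjusted p = 0.034) in 12, whereas Sprr2j-ps (2.99 ± 0.62 SE, adjusted p = 0.0079) and Tgm3 (1.70 ± 0.30 SE, adjusted p = 0.0014) were called in all. Members of the Sprr2 and Lce families are near copies of each other, which the probe sets may not separate.

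The lower ones were Ivl, Lor, Lce1m and Lce1g. Ivl, encoding involucrin, stood at 5.39, 5.34, 5.74, 5.35 and 5.94 in IL-22-Fc wounds at day 7, against 7.69, 7.69, 7.82, 7.96 and 7.78 in control wounds at day 7. At 24 h it stood at 5.43 to 6.14 in IL-22-Fc wounds and at 5.58 to 6.39 in control wounds. In IL-22-Fc wounds the day 7 level was thus that of 24 h, while control wounds were higher at day 7 (difference -1.94 ± 0.31 SE, adjusted p = 0.00026). Lor, encoding loricrin, the main protein of the envelope, was lower with IL-22-Fc at both times. It stood at 11.23, 10.54, 10.96, 10.96 and 10.58 in IL-22-Fc wounds and 13.30, 13.18, 13.17, 13.48 and 13.37 in control wounds at day 7, and at 12.03, 12.55, 12.19, 12.16 and 11.91 in IL-22-Fc wounds and 13.16, 12.96, 13.38 and 13.41 in control wounds at 24 h. Its effect was -2.44 at day 7 and -1.06 at 24 h, and the difference was -1.39 ± 0.18 (SE, adjusted p = 5.1e-06). Lce1m likewise had effects of -3.84 at day 7 and -1.43 at 24 h (difference -2.41 ± 0.33 SE, adjusted p = 2.3e-05).

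The promoters of Serpinb11, Ivl and Lor are shown because the letters TGANTCA stand in all 3. The effect grew higher in Serpinb11 and lower in Ivl and Lor. These letters are a loose form of the site of AP-1 factors, which has C or G in place of N. The matches in Ivl and Lor have C and G there, whereas those in Serpinb11 have T and A. The promoter of Atp1b4, a muscle gene described further on, holds TTCNNNGAA, the site bound by STAT factors. It is 1 of the 5 such promoters of genes that grew higher. These 4 were chosen after the search. Each runs over 300 bases of RefSeq promoter sequence (build GRCm38.p6), 5′ to 3′ along the gene, with matches to the named letters in capitals.
Serpinb11 (chr1:107362064-107362363, plus strand): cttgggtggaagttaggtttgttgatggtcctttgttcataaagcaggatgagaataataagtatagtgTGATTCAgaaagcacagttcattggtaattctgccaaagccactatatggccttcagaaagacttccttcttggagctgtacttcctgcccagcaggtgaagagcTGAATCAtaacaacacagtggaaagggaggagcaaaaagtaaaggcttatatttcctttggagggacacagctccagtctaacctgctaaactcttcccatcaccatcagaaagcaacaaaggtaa
Ivl (chr3:92573686-92573985, minus strand): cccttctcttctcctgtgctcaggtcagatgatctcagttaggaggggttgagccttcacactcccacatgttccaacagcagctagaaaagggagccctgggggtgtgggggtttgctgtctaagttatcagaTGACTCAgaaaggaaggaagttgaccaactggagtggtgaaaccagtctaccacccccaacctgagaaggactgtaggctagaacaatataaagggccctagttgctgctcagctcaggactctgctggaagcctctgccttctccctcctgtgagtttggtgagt
Lor (chr3:92083093-92083392, minus strand): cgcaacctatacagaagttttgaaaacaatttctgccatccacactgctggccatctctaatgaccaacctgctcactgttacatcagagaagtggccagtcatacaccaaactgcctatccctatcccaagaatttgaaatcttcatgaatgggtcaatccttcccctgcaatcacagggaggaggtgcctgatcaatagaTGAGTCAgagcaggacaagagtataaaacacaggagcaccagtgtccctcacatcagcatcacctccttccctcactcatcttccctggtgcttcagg
Atp1b4 (chrX:38315872-38316171, plus strand): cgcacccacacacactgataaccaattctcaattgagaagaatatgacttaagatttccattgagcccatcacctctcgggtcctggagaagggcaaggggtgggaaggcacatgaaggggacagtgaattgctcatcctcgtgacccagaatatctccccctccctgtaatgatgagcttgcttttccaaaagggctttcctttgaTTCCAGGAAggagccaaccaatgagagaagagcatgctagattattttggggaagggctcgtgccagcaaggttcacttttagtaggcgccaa
Both motifs were searched on both strands, and both read the same on the opposite strand. TGANTCA stood in 9 of 104 promoters of genes that grew higher (8.65%) and in 7 of 68 that grew lower (10.3%), against 7.81% of all 32851 promoters. TTCNNNGAA stood in 5 of 104 (4.81%) and 4 of 68 (5.88%), against 8.30% of all. The TGANTCA shares count any base at N, so that they are not shares of the AP-1 site. All these shares describe letters in a short window and say nothing about binding.

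Some suprabasal keratins of resting epidermis had lower differences. Of 6 measured, 3 had a lower and 0 a higher difference, with a median of -0.84 and a range of -3.51 to -0.14. Krt77 stood at 8.05, 8.87, 9.77, 8.66 and 8.67 in IL-22-Fc wounds at day 7 and at 12.22, 12.40, 12.51, 12.35 and 12.46 in control wounds at day 7. After 24 h its levels were 12.74 to 13.35 in IL-22-Fc wounds and 12.91 to 13.18 in control wounds. Of the 4 groups, only IL-22-Fc wounds at day 7 were low, and the difference was -3.51 ± 0.28 (SE, adjusted p = 1.6e-10). Krt2 was near background in every array except those of control wounds at day 7, with 3.03, 3.65, 3.58, 3.78 and 3.54 in IL-22-Fc wounds and 4.59, 8.25, 6.67, 7.23 and 8.71 in control wounds at day 7. At 24 h Krt2 averaged 3.85 in IL-22-Fc wounds and 3.91 in control wounds, and the difference was -3.51 ± 0.80 (SE, adjusted p = 0.016). Krt78 had a difference of -1.29 (adjusted p = 0.00012). With VEGF wounds in place of control wounds, the median of the list was 0.03, with -2.34 for Krt77, -4.62 for Krt2 and -0.20 for Krt78.

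Mt4, a metallothionein of differentiating squamous epithelium, had the largest lower difference. It stood at 5.35, 4.86, 6.72, 6.71 and 5.34 in IL-22-Fc wounds and 10.09, 10.58, 9.38, 10.78 and 9.98 in control wounds at day 7. At 24 h the groups overlapped, with 7.31 to 8.49 in IL-22-Fc wounds and 7.20 to 9.25 in control wounds. The difference was -3.81 ± 0.57 (SE, adjusted p = 8.2e-05). Mt4 was the only call among 4 metallothioneins, and the other 3 had differences above 0 (median of the list 0.365). Krt15, a keratin of basal and hair follicle stem cells, had a difference of -1.73 ± 0.26 (SE, adjusted p = 9.9e-05), and was the only 1 of 14 basal keratinocyte genes called. Dapl1 (-2.28), Tesc (-1.90), Paqr7 (-1.82) and Akr1d1 (-1.81) were further genes that were lower in every IL-22-Fc array than in every control array at day 7 and overlapped at 24 h. Krt17, a keratin of wounded epidermis, had a higher difference of 0.78 ± 0.21 (SE, adjusted p = 0.048, called in 5 of 19 fits), the only call among 28 genes of wound keratins and activated keratinocytes.

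Transport and signalling genes were affected singly. Slc26a4, an anion exchanger, averaged 6.54 in IL-22-Fc wounds and 3.93 in control wounds at day 7, and 5.18 in IL-22-Fc wounds and 4.82 in control wounds at 24 h (difference 2.25 ± 0.45 SE, adjusted p = 0.0049). Slc7a11, the cystine and glutamate exchanger, had a difference of 2.20 (adjusted p = 0.046) that was called in 5 of 19 fits. Slc5a1, the sodium and glucose cotransporter, had a difference of 1.26 ± 0.30 (SE, adjusted p = 0.022, called in 17 of 19 fits). Of 12 solute carriers that the study placed in an IL-22-Fc gene network, and which are therefore no independent evidence, these 3 were called higher and none lower. Of 19 epidermal transcription factors, Ehf (0.92, called in 15 of 19 fits) and Ovol1 (0.64, called in 5) had higher differences, and Grhl3 had a difference of 0.73 ± 0.26 (SE, adjusted p = 0.15). Rel, an NF-kappaB subunit, averaged 7.87 in IL-22-Fc wounds and 6.34 in control wounds at day 7, and 7.12 in IL-22-Fc wounds and 7.18 in control wounds at 24 h (difference 1.59 ± 0.23 SE, adjusted p = 7.2e-05).

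In the pathway of the cytokine itself, the receptor gene Il22ra1 had a called difference without a called effect at either time. It stood at 6.44, 6.42, 6.23, 6.29 and 6.17 in IL-22-Fc wounds and 6.15, 6.04, 6.00, 6.29 and 5.65 in control wounds at day 7. At 24 h it stood at 5.32, 5.10, 5.33, 5.04 and 4.93 in IL-22-Fc wounds, below all control wounds at 5.51, 5.65, 5.60 and 5.70. The effect was 0.29 at day 7 (adjusted p = 0.12) and -0.47 at 24 h (adjusted p = 0.13), and the difference 0.76 ± 0.16 (SE, adjusted p = 0.0082). It was the only call among 9 genes of the IL-20 subfamily and its receptors. Il22ra2, the decoy receptor, had a difference of 0.06 ± 0.31 (SE, adjusted p = 0.97) and Il10rb of 0.34 ± 0.20 (SE, adjusted p = 0.47).

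Of 30 genes of STAT3 and IL-22 receptor signalling, Junb, an AP-1 subunit, had a higher and none a lower difference (median 0.37). Socs3, the feedback inhibitor of STAT3, averaged 10.27 in IL-22-Fc wounds and 9.24 in control wounds at day 7, and 10.72 in IL-22-Fc wounds and 10.96 in control wounds at 24 h. Its difference of 1.27 ± 0.45 (SE, adjusted p = 0.15) was not called. The IL-36 genes Il36a (listed as Il1f6, difference 1.32, adjusted p = 0.13), Il36b (listed as Il1f8, 0.15, adjusted p = 0.90) and Il36g (listed as Il1f9, 1.14, adjusted p = 0.11) were called higher at day 7 without a called difference. In the IL-1 and IL-36 family of 14, Il18rap, a subunit of the IL-18 receptor, was the only call. It stood at 6.49 to 6.68 in IL-22-Fc wounds and 5.38 to 6.03 in control wounds at day 7, and at 6.85 to 7.66 in IL-22-Fc wounds and 7.86 to 8.00 in control wounds at 24 h, so that IL-22-Fc arrays lay above all controls at day 7 and below all at 24 h. The difference was 1.39 ± 0.21 (SE, adjusted p = 0.00013).

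A few neutrophil genes had higher differences. Of 25 neutrophil markers 3 had a higher and 0 a lower difference, with a median of 0.53, a median effect of 0.16 at day 7 and of -0.29 at 24 h. The mean level of the whole list was 7.36 to 7.94 in IL-22-Fc wounds and 7.03 to 7.50 in control wounds at day 7. After 24 h the range was 8.12 to 8.48 in IL-22-Fc wounds and 8.57 to 8.76 in control wounds. In whole tissue, fewer cells of a type and less RNA per cell cannot be told apart, and the part of neutrophils in the values of S100a9 and Lcn2 was not tested. Cxcr2, a chemokine receptor of neutrophils, stood at 7.25, 7.53, 7.56, 7.13 and 7.33 in IL-22-Fc wounds and 6.25, 6.26, 5.71, 5.98 and 5.33 in control wounds at day 7. At 24 h it stood at 7.11 to 8.01 in IL-22-Fc wounds and 7.77 to 8.63 in control wounds, with a difference of 1.74 ± 0.32 (SE, adjusted p = 0.0021). Stfa2l1, a stefin of the cystatin family, had a difference of 1.59 ± 0.36 (SE, adjusted p = 0.016, called in 18 of 19 fits). Tnf averaged 6.27 in IL-22-Fc wounds and 5.78 in control wounds at day 7, and 7.95 in IL-22-Fc wounds and 8.82 in control wounds at 24 h (difference 1.37 ± 0.36 SE, adjusted p = 0.037, called in 11 of 19 fits).

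Adh6a and Slurp1 were the 2 genes whose effect turned. Adh6a, of the alcohol dehydrogenases, stood at 7.44, 8.31, 8.73, 8.19 and 7.96 in IL-22-Fc wounds at day 7, below all control wounds at 9.32, 9.61, 9.16, 9.57 and 8.97. After 24 h its levels were 10.52, 10.81, 10.80, 10.60 and 10.17 in IL-22-Fc wounds, above all control wounds at 9.93, 9.60, 9.42 and 9.73. The effect was -1.20 at day 7 (adjusted p = 8.5e-06) and 0.91 at 24 h (adjusted p = 0.02), and the difference -2.11 ± 0.25 (SE, adjusted p = 1.8e-06). The neighbouring family member Adh6b did not share this pattern. It averaged 8.21 in IL-22-Fc wounds and 7.15 in control wounds at day 7, and 8.42 in IL-22-Fc wounds and 7.51 in control wounds at 24 h, and its difference was 0.14 (95% interval -0.33 to 0.61).

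Slurp1, a secreted Ly6-type protein of keratinocytes, stood at 8.36, 7.56, 7.99, 7.68 and 7.42 in IL-22-Fc wounds and 8.51, 8.62, 8.53, 8.82 and 8.57 in control wounds at day 7. At 24 h it stood at 9.71, 10.05, 10.17, 10.15 and 9.47 in IL-22-Fc wounds and 9.20, 8.80, 9.00 and 8.98 in control wounds. The groups were apart at both times in opposite directions, with effects of -0.81 at day 7 (adjusted p = 0.00025) and 0.91 at 24 h (adjusted p = 0.0017), and a difference of -1.72 ± 0.21 (SE, adjusted p = 3.1e-06). The difference stayed called for both genes in all 31 alternatives, but the turn did not. Adh6a was in this class in 21 of the 31, since its turn was lost without IL-22-Fc replicate 2, 3 or 4 or control replicate 2, 3 or 4 at 24 h, with only the 19 arrays, with all 42 arrays, at an adjusted p under 0.01 and at 2-fold. Slurp1 was in it in 30 of the 31, and neither turned at 2-fold. Mean levels of both genes were lower at day 7 than at 24 h in IL-22-Fc wounds and in control wounds.

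**Figure D3:**
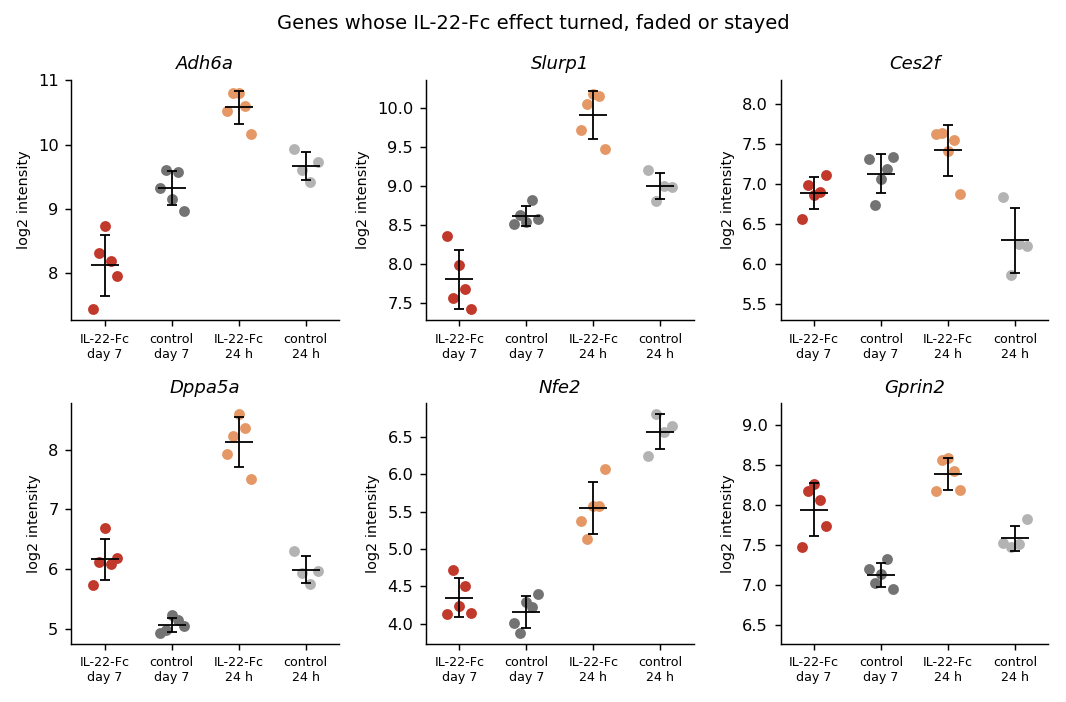
Log2 intensity by array of the 2 genes whose effect turned (Adh6a, Slurp1), the 3 whose effect faded (Ces2f, Dppa5a, Nfe2) and Gprin2, whose effect was even, with the mean and SD as black bars. In Adh6a and Slurp1 the IL-22-Fc wounds lie below control wounds at day 7 and above them at 24 h.

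The effect faded in Ces2f, Dppa5a and Nfe2. Ces2f, a carboxylesterase, stood at 6.57, 6.99, 6.86, 6.90 and 7.11 in IL-22-Fc wounds and 7.31, 6.74, 7.07, 7.19 and 7.34 in control wounds at day 7, where the groups overlapped. After 24 h its levels were 7.63, 7.64, 7.41, 7.55 and 6.88 in IL-22-Fc wounds, above control wounds at 6.84, 5.87, 6.25 and 6.23 (difference -1.37 ± 0.24 SE, adjusted p = 0.0014). Nfe2, a transcription factor of the megakaryocyte and erythroid lineages, stood at 4.13 to 4.72 in IL-22-Fc wounds and 3.88 to 4.40 in control wounds at day 7. At 24 h it stood at 5.37, 5.13, 5.58, 5.57 and 6.07 in IL-22-Fc wounds, below control wounds at 6.25, 6.80, 6.57 and 6.65 (difference 1.21 ± 0.23 SE, adjusted p = 0.0038). Dppa5a, known from pluripotent cells, was higher with IL-22-Fc at both times, by 1.11 at day 7 and 2.13 at 24 h. Its difference of -1.03 ± 0.28 (SE, adjusted p = 0.048) was called in 3 of 19 fits. Against control wounds, VEGF had differences of -0.84 for Ces2f (adjusted p = 0.024), 0.87 for Nfe2 (adjusted p = 0.013) and 0.30 for Dppa5a (adjusted p = 0.60). PDGF had -0.38, 1.05 and -0.79 in that order. These values share their control arrays with those of IL-22-Fc. With VEGF wounds in place of control wounds, the IL-22-Fc difference was called for Dppa5a (-1.33) and not for Ces2f (-0.53) or Nfe2 (0.34).

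Most of the 20 genes called at 24 h were also changed at day 7, and 14 were called in the same direction at both times. Alox8, Chil1, Lce1m and Lor grew, Dppa5a faded, and the effect was even in Gprin2 and Aif1l. Gprin2 had effects of 0.81 at day 7 and 0.80 at 24 h, with a difference of 0.01 (95% interval -0.36 to 0.38), and Aif1l effects of -0.69 at day 7 and -0.74 at 24 h, with a difference of 0.05 (95% interval -0.29 to 0.38). For others the interval was wider than 1.5-fold. Atl1, encoding the membrane-shaping GTPase atlastin, had effects of 1.85 at day 7 and 2.07 at 24 h (difference -0.22, 95% interval -0.80 to 0.36). Serpina12, which encodes the adipokine vaspin, had effects of -2.96 at day 7 and -2.26 at 24 h (difference -0.70, adjusted p = 0.34). Gsdma, a pore-forming gasdermin of epithelium, had effects of 1.11 at day 7 and 0.89 at 24 h, and Btc, an EGF receptor ligand, of -1.16 at day 7 and -0.90 at 24 h. Gng4, a G protein gamma subunit, had effects of -0.90 at day 7 and -1.23 at 24 h. Ces2f, Nfe2, Myrfl and Mycn were called only at 24 h. Myrfl had a 24 h effect of 0.59 and a difference of -0.45 (adjusted p = 0.18), and Mycn, a MYC family transcription factor, a 24 h effect of -0.65 and a difference of 0.25 (adjusted p = 0.60).

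Genes of newly forming muscle had growing effects. This group was assembled after the values had been seen. Of 20 measured genes of regenerating and embryonic muscle, 12 had a higher and 0 a lower difference (median 1.21), 13 were called higher at day 7 and none was called at 24 h. The mean level of the group was 7.54 to 7.98 in IL-22-Fc wounds and 6.35 to 7.01 in control wounds at day 7, and 4.96 to 5.16 in IL-22-Fc wounds and 5.10 to 5.24 in control wounds at 24 h. Actc1, the actin of embryonic muscle and heart, stood at 10.34, 10.26, 10.58, 10.67 and 11.31 in IL-22-Fc wounds and 7.99, 7.73, 7.92, 7.68 and 8.41 in control wounds at day 7. After 24 h its levels were 4.57 to 5.15 in IL-22-Fc wounds and 4.82 to 5.39 in control wounds, so that control wounds were higher at day 7 than at 24 h as well. The difference was 2.82 ± 0.23 (SE, adjusted p = 2.3e-10).

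Myh3, the embryonic myosin heavy chain, was near background at 24 h, at 2.98 to 3.72 in IL-22-Fc wounds and 2.96 to 3.64 in control wounds. At day 7 it stood at 10.69, 10.22, 10.38, 10.48 and 10.75 in IL-22-Fc wounds and 8.22, 8.14, 8.40, 8.42 and 8.72 in control wounds, with a difference of 2.10 ± 0.23 (SE, adjusted p = 3.3e-07). Mymx and Mymk, whose proteins fuse myoblasts, had differences of 2.66 ± 0.30 (SE, adjusted p = 6e-07) and 1.25 ± 0.23 (SE, adjusted p = 0.0024). Among the myogenic transcription factors, Myf5 had a difference of 1.09 ± 0.15 (SE, adjusted p = 2.3e-05), Myog of 1.24 ± 0.33 (SE, adjusted p = 0.04, called in 7 of 19 fits) and Myod1 of 0.46 ± 0.17 (SE, adjusted p = 0.18). Troponins of slow and embryonic fibres had differences of 2.19 for Tnnt1, 2.15 for Tnnc1, 1.70 for Tnni1 and 1.21 for Tnnt2 (called in 11 of 19 fits). Myl4, the embryonic myosin light chain, and Chrna1, an acetylcholine receptor subunit, had differences of 1.26 and 1.02. Atp1b4, a muscle protein related to sodium pump beta subunits, and Igf2, a fetal growth factor, had differences of 2.38 and 1.21.

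The adult muscle genes Acta1 and Ckm had differences of 0.10 (95% interval -0.28 to 0.48) and -0.17 (95% interval -0.70 to 0.36). Of 22 genes on the list of skeletal muscle, none was called for the difference in either direction by limma, against 1.43% of all probe sets. The mean level of the list at day 7 was 9.79 to 10.48 in IL-22-Fc wounds and 9.85 to 10.37 in control wounds. At 24 h it was 9.61 to 10.31 in IL-22-Fc wounds and 9.68 to 10.32 in control wounds. The other growth factors of the series had differences of the same sign for Actc1, at 1.73 for VEGF (adjusted p = 3e-06) and 3.14 for PDGF, and for Myh3, at 1.10 for VEGF (adjusted p = 0.0013) and 1.77 for PDGF. These share their control arrays with the IL-22-Fc values. With VEGF wounds in place of control wounds, the IL-22-Fc difference was 1.10 for Actc1 (adjusted p = 0.00058) and 1.00 for Myh3 (adjusted p = 0.0018). It was also called for Mymx, Mymk, Myf5, Tnnt1, Tnnc1, Tnni1, Myl4, Chrna1 and Igf2, and not for Atp1b4 (0.77), Tnnt2 (0.49) or Myog (0.89). Against control wounds, the PDGF difference exceeded that of IL-22-Fc for Actc1, Mymx (3.03), Mymk (1.77), Myog (2.75), Tnnc1 (2.43), Tnni1 (1.98), Tnnt2 (1.49) and Myl4 (1.68). It was smaller for Myh3, Myf5 (0.10), Tnnt1 (1.90), Chrna1 (0.22), Atp1b4 (2.00) and Igf2 (1.09).

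**Figure D4:**
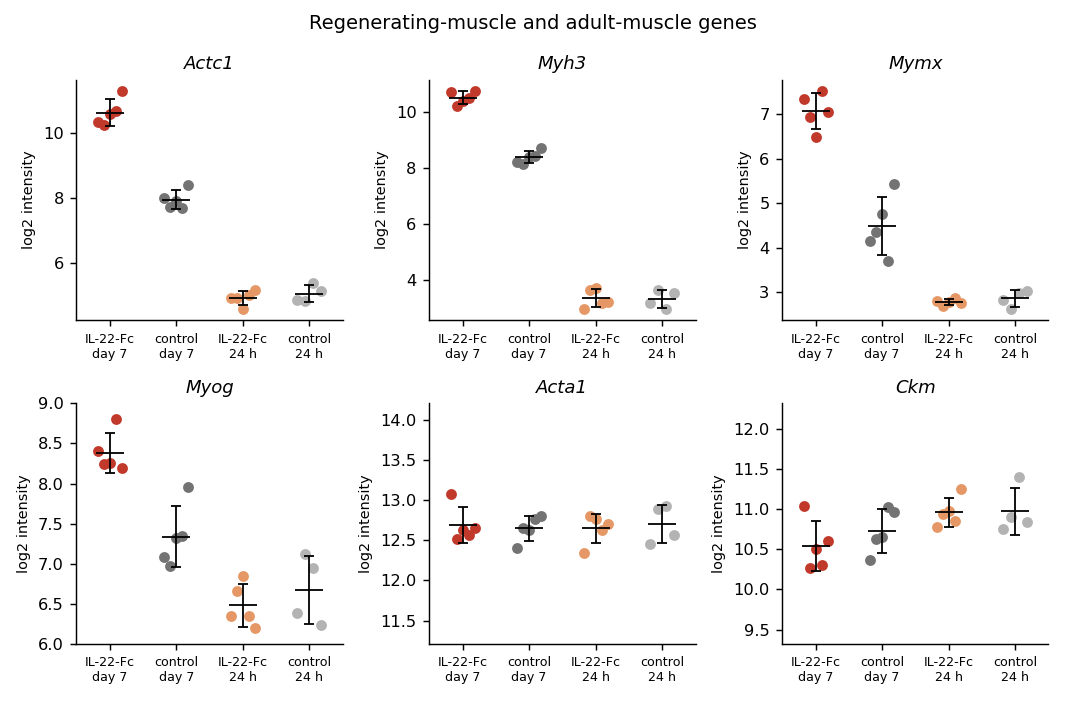
Log2 intensity by array of 4 genes of newly forming muscle (Actc1, Myh3, Mymx, Myog) and 2 genes of mature muscle (Acta1, Ckm), with the mean and SD as black bars. The first 4 are highest in IL-22-Fc wounds at day 7 with control wounds at day 7 next, and Acta1 and Ckm overlap across all 4 groups.

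Some adipocyte genes had lower differences. Of 17 adipocyte genes, 5 had a lower and 0 a higher difference, with a median of -0.55. The mean level of the list was 8.22 to 8.66 in IL-22-Fc wounds and 8.69 to 9.03 in control wounds at day 7, and 8.87 to 9.47 in IL-22-Fc wounds and 8.88 to 9.25 in control wounds at 24 h. Retn, which encodes the adipokine resistin, stood at 6.92 to 7.59 in IL-22-Fc wounds and 7.75 to 8.37 in control wounds at day 7, and at 8.58 to 9.15 in IL-22-Fc wounds and 8.73 to 9.00 in control wounds at 24 h (difference -1.04 ± 0.21 SE, adjusted p = 0.0056). Pck1, the gluconeogenic and glyceroneogenic enzyme PEPCK, had a difference of -2.07 ± 0.46 (SE, adjusted p = 0.014, called in 18 of 19 fits) with no called effect at either time, at -0.74 at day 7 (adjusted p = 0.18) and 1.33 at 24 h (adjusted p = 0.16). Car3, a carbonic anhydrase abundant in fat, had a difference of -1.04 ± 0.23 (SE, adjusted p = 0.011). With VEGF wounds in place of control wounds, the median of the list was 0.32. Against control wounds, Car3 had differences of -1.37 with VEGF and -1.68 with PDGF, and Retn of -0.71 with VEGF and -0.63 with PDGF. Pck1 had -2.79 with VEGF and 0.96 with PDGF (adjusted p = 0.14). These values share their control arrays with those of IL-22-Fc.

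Of 22 fibroblast markers 1 was called lower (median -0.61, with 20 of 22 differences below 0). The mean level of the list was 9.69 to 10.11 in IL-22-Fc wounds and 9.97 to 10.52 in control wounds at day 7, and 8.48 to 8.99 in IL-22-Fc wounds and 8.19 to 8.67 in control wounds at 24 h. Pericyte genes had 1 lower call of 13 (median -0.45) and collagens and matrix 0 of 29 (median -0.45). Igfbp5, an IGF-binding protein of connective tissue, was below all control arrays at day 7 and above all at 24 h in IL-22-Fc wounds, with a difference of -1.12 ± 0.21 (SE, adjusted p = 0.0021). The part of fewer stromal or fat cells in these values was not tested. Proliferation genes (0 called of 33, median 0.06), T and NK cell genes (0 of 17, median -0.05) and monocyte and macrophage genes (0 of 21, median -0.04) had no called difference. With 1.43% of all probe sets called, the counts of calls in this paragraph do not set these lists apart.

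**Figure D5:**
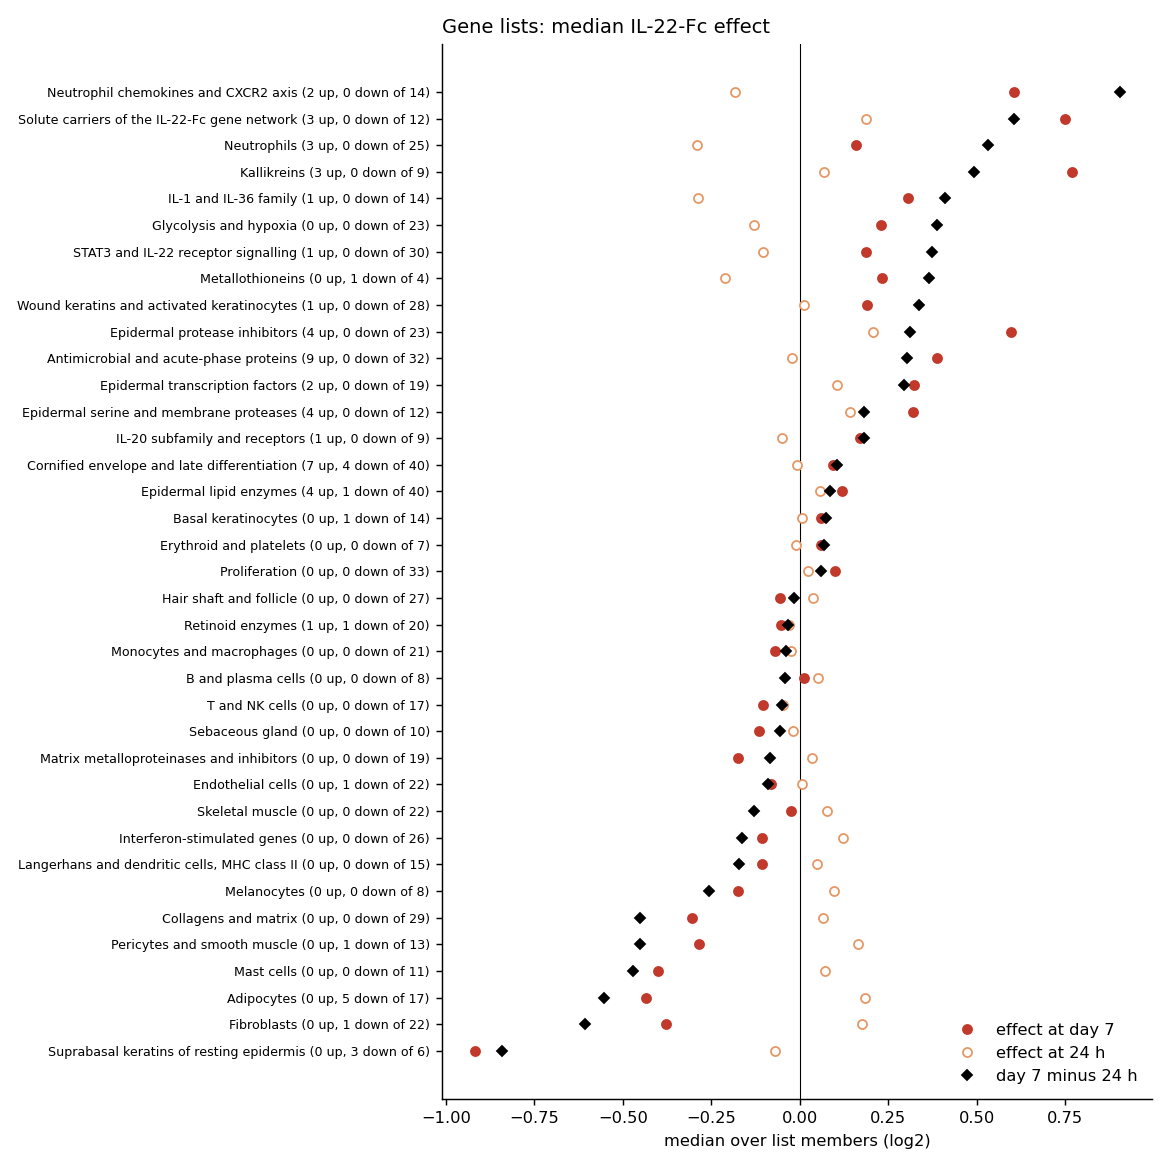
Median over the members of each gene list (log2) of the IL-22-Fc effect at day 7 (red), the effect at 24 h (open) and their difference (black), with the number of members called higher and lower for the difference beside each name. Neutrophil chemokines with Cxcr2 (median 0.91) and solute carriers (0.60) lie at the upper end, and fibroblasts (-0.61) and suprabasal keratins (-0.84) at the lower end.

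The levels behind the calls were not alike between the times. Of the 130 higher differences, IL-22-Fc wounds were higher at day 7 than at 24 h in 104 and control wounds in 65. Of the 166 lower differences, IL-22-Fc wounds were higher at day 7 in 41 and control wounds in 110. For the lower differences the median effect was -0.59 at day 7 and 0.25 at 24 h, and the 24 h effect had the opposite sign in 141. Because the 24 h effect is a term of the difference, these counts describe the calls and test nothing further.

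A comparison without the control arrays was made by taking IL-22-Fc minus VEGF at each time. It describes how the members fare against a different comparator. It called 1608 probe sets (7.78%), with 963 higher and 645 lower, and it shares the IL-22-Fc arrays with the main difference. Of the 130 higher differences, 104 (80.0%) were called higher there, and of the 166 lower ones 43 (25.9%) were called lower and 1 higher. Lpo had a value of 3.30 (adjusted p = 1.8e-13), Alox8 of 3.36 (adjusted p = 2.8e-05), Krt77 of -2.34 (adjusted p = 1.1e-07) and Slurp1 of -0.84 (adjusted p = 0.0041) against VEGF. Ivl (-0.44, adjusted p = 0.40), Lor (-0.42, adjusted p = 0.11), Adh6a (-0.67, adjusted p = 0.062) and Pck1 (0.72, adjusted p = 0.33) were not called against VEGF. VEGF wounds also had a lower difference against control wounds in all 4 of these genes. Examples were -0.97 for Lor, -1.43 for Adh6a and -2.79 for Pck1. This was not confined to them, with VEGF differences of -1.17 for Krt77 (adjusted p = 0.0041) and -0.88 for Slurp1 (adjusted p = 0.0048). Lce1m (-1.75, adjusted p = 0.00042) and Krt15 (-1.15, adjusted p = 0.0029) were alike, and were not called against VEGF either (-0.66 and -0.58). For Krt2 the VEGF difference was 1.11 (adjusted p = 0.46). PDGF wounds had higher differences against control wounds for Sprr2f (4.05, adjusted p = 0.00088), Pla2g4d (2.11, adjusted p = 1.3e-06) and Defb3 (2.80, adjusted p = 0.029). For Lpo (0.21, adjusted p = 0.53) and Alox8 (-0.06, adjusted p = 0.96) the PDGF difference was not called. These VEGF and PDGF values share the control arrays with the IL-22-Fc values.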

How the data were processed

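RNA from wounds was hybridised to 1-colour Affymetrix mouse arrays. The authors normalized probe set values by RMA and kept 1 probe set per gene, the most variable, and the deposited values are linear intensity, which was turned to log2 here. The submitters' processing notes name RMA and limma without versions. Columns of the table were matched to samples by accession, and the labels gave each array's group. Replicate numbers follow accession order and only name an array. The 37 wound arrays of 8 groups (18 of them VEGF or PDGF) were fitted with 1 mean per group in limma 3.58.1 under R 4.3.3, which pools the spread over groups, and the IL-22-Fc effects and their difference were contrasts of that fit. P-values were Benjamini-Hochberg adjusted over 20672 probe sets. Gene symbols came from the platform annotation, updated through Entrez IDs to RefSeq (GRCm38.p6) for 17779 of the 17928 probe sets with 1 symbol. A further 79 had several symbols and 2665 none, and none of those is named. Array data carry no read depth, and the number of arrays limits the precision.

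The gene lists and the rule for named genes were chosen with earlier results of these data known. The rule named the 10 largest higher and lower called differences, up to 6 genes of each class and direction, genes the study discusses, and up to 4 called and 2 uncalled members of each list. The muscle genes other than Actc1 and Mymx, and Lor, Rel, Igfbp5, Atl1, Adh6b, Gsdma, Btc, Gng4, Myrfl and Mycn, were named after their values were seen. The fit was checked on simulated data with known changes. Alternatives changed the arrays, normalization, filters, thresholds, variance model and a covariate for RNA quality, or left out each of the 19 arrays in turn. Of 38 lists, the Y-linked one served as background.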

Additional observations from a re-analysis of the deposited data

Results flagged for a closer look

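The difference between the IL-22-Fc effect at day 7 and at 24 h passed the test for 296 probe sets. In 5 genes an effect called at 24 h faded or turned by that test, with differences (log2) of -2.108 in Adh6a, -1.721 in Slurp1, -1.369 in Ces2f, -1.026 in Dppa5a and 1.208 in Nfe2.

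Single arrays stood apart from the rest of their group in 28 of 388 sets of 1 gene in 1 group, by a gap larger than Dixon's critical value, and chance flags about 1 in 20 sets. In IL-22-Fc wounds at day 7, replicate 1 was the lowest in Fetub (9.37), Klk11 (9.03), Krt15 (9.35) and Atl1 (6.15) and the highest in Mymk (7.64), Tnnt2 (10.46), Igf2 (10.50) and Acta1 (13.08), and replicate 3 was the highest in Retn (7.59). In control wounds at day 7, replicate 5 was the lowest in Lce3a (7.54), S100a9 (12.29) and Lcn2 (8.00) and the highest in Mymk (6.06) and Myf5 (3.56).

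In IL-22-Fc wounds at 24 h, replicate 1 was the highest in Lpo (4.54), Lce3a (9.45), Klk8 (9.62), Klk9 (8.75), Tmprss11a (2.87) and Tgm3 (7.94), replicate 4 the highest in Paqr7 (8.42), and replicate 5 the lowest in Chil1 (10.88) and Gsdma (7.04). In control wounds at 24 h, replicate 2 was the highest in Cxcr2 (8.63), Tgm3 (7.17) and Il36b (listed as Il1f8, 6.93), replicate 1 in Serpinb3a (5.53) and replicate 4 in Gprin2 (7.82).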

How the results depend on the processing

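The 296 calls for the difference became 133 in a fit with all 42 arrays, 129 at a threshold of 2-fold and 97 at an adjusted p under 0.01. The 187 growing effects became 102, 83 and 87 under these settings, and 292 with no fold threshold. The 63 calls among the gene lists became 38 with all 42 arrays and 28 at an adjusted p under 0.01. Calls at day 7 became 1275 with no fold threshold and 167 at 2-fold, those at 24 h 10 at 2-fold and 35 with array weights, and those against VEGF 2729 with no fold threshold and 576 at 2-fold. With only the 19 arrays in the fit, 135 differences were higher and 103 lower. The 2 effects that turned became 1 with those 19 arrays, with all 42 arrays and at an adjusted p under 0.01, and 0 at 2-fold. With 1 array left out at a time, the calls for the difference ranged over 159 to 452, the growing effects over 120 to 209, the list calls over 40 to 70, the day 7 calls over 416 to 518, the 24 h calls over 15 to 47 and those against VEGF over 1511 to 1683. Without control replicate 1 at 24 h there were 120 growing effects and 40 list calls, without control replicate 2 at 24 h 122 growing effects, and without IL-22-Fc replicate 5 at 24 h 47 calls at 24 h. Beyond the fewer calls that stricter thresholds give, the cause was not tested. Apart from Pglyrp1, Lce1g and Junb, which were not followed, 73 called genes were named. Of these, 44 stayed called in all 31 alternatives and 55 in all 19 that left out an array, and none changed direction in any. No paired analysis was possible because the labels give the arrays no replicate numbers. With 4 or 5 arrays per group, changes near the threshold depend on single arrays. The median standard error of 0.151 limits which differences can be called, and levels near the Y-linked background understate folds.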
